A study of Arabidopsis with 12 samples.

Results

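The 5 enzymes considered here make, modify or break down jasmonate, and they were measured across 3 genotypes of Arabidopsis seedlings, with and without methyl jasmonate. They were the probe sets annotated to JRG21 (AT3G55970), AT2G38240, AT5G05600, OPCL1 (AT1G20510) and JMT (AT1G19640), 1 probe set per gene, and they make up 5 of the 13356 named genes and of the 22589 features tested. Whole 7-day-old seedlings of the Columbia background, grown on MS medium at 23 °C in long days, were given 100 µM methyl jasmonate (MeJA) or ethanol (mock) for 4 h. The mutant coi1-2 is altered in COI1, the F-box subunit that perceives jasmonate. Whether COI1 activity remains in coi1-2 was not examined here. The mutant ein3 eil1 is altered in both EIN3 and EIL1, transcription factors of the ethylene pathway, and Col-0 is the wild type. Each of the 6 groups (coi1-2 MeJA, coi1-2 mock, ein3 eil1 MeJA, ein3 eil1 mock, Col-0 MeJA and Col-0 mock) had 2 ATH1 arrays, 12 in all. The study asked how far jasmonate-regulated transcripts need COI1, or EIN3 with EIL1.

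Jasmonate is made from linolenic acid, first in the plastid and then in the peroxisome, where OPCL1 couples an intermediate to coenzyme A so that its side chain can be shortened by beta-oxidation. The isoleucine conjugate of jasmonate joins COI1 to the JAZ repressors, which are then degraded, and this frees MYC transcription factors to act. JRG21, AT2G38240 and AT5G05600 encode oxoglutarate-dependent oxygenases of the jasmonate-induced oxygenase family (JOX, also JAO), which hydroxylate jasmonic acid and thereby remove the precursor of the active conjugate. JMT encodes the carboxyl methyltransferase that turns jasmonic acid into MeJA, the compound applied here.

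Levels are log2 RMA values, on which a difference of 1 is a doubling. A feature was called where limma's adjusted p was under 0.05. EIN3 lay between 5.91 and 6.25 on the 4 ein3 eil1 arrays and between 9.26 and 9.59 on the other 8, while COI1 and EIL1 were not analysed here. Replicate arrays correlated across features at 0.9898 (ein3 eil1 MeJA) to 0.9961 (coi1-2 MeJA), and array medians lay between 5.23 and 5.40. Nothing in the labels says that replicates came from different cultures, so the spread behind every p-value may be technical. In whole seedlings fewer cells of a type and less RNA per cell cannot be told apart. Of 19 markers listed for leaf, root, flower and seed 2 were measured by name, the root hair expansins EXPA7 and EXPA18, and both lay above the array median on all 12 arrays, between 5.94 and 7.77.

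**Figure D1:**
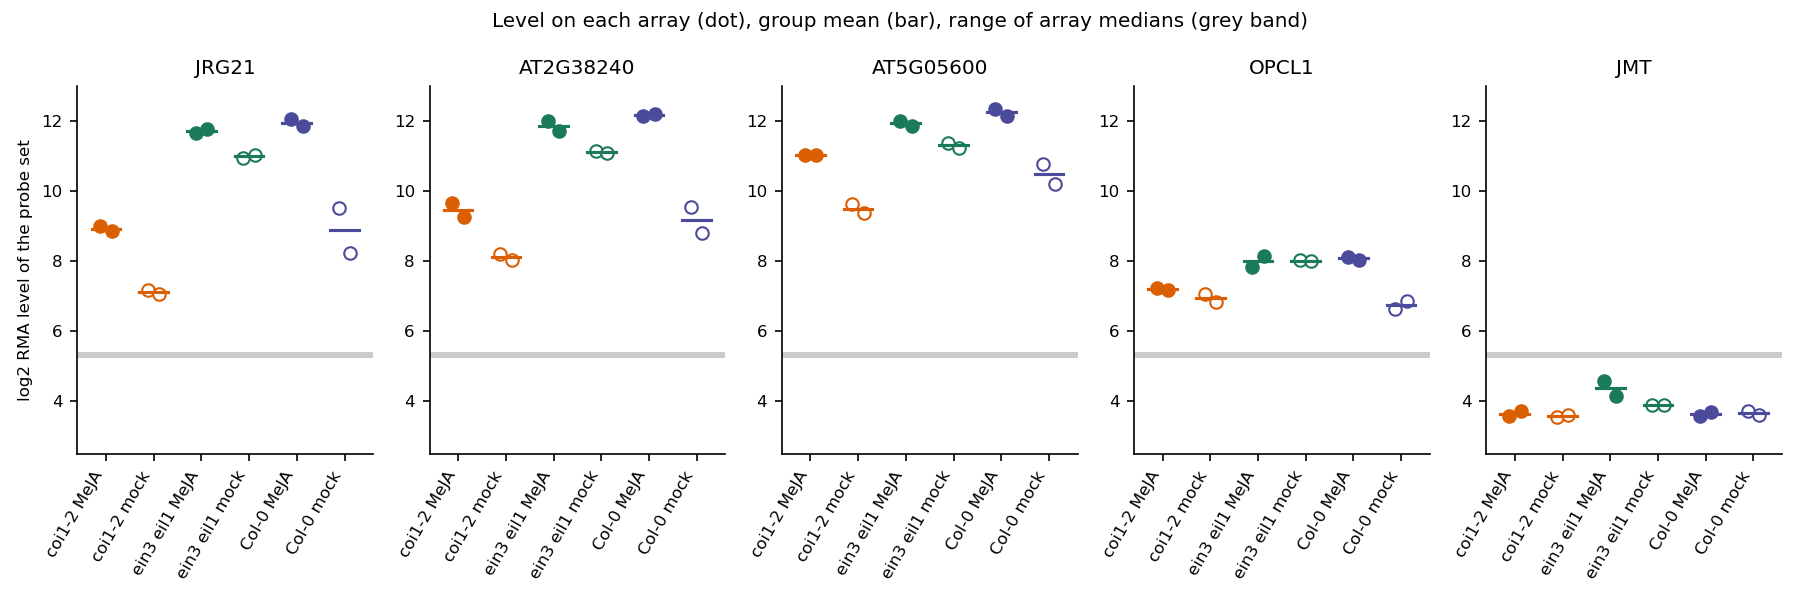
Level of each enzyme's probe set on each array (dots, filled for MeJA and open for mock), with the mean of the 2 arrays as a bar, on a log2 RMA axis, and the range of array medians (5.23 to 5.40) as a grey band. The 3 oxygenases share an order of groups with coi1-2 mock lowest and Col-0 MeJA highest, the 2 Col-0 mock arrays of JRG21 lie 1.28 apart, and JMT lies below the band on all arrays.

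JRG21 spanned the widest range of the 5. It stood at 9.01 and 8.85 in coi1-2 MeJA, against 7.18 and 7.06 in coi1-2 mock. In ein3 eil1 it stood at 11.66 and 11.77 with MeJA, against 10.94 and 11.04 with mock. Col-0 gave 12.05 and 11.85 with MeJA, against 9.52 and 8.24 with mock. In every genotype both MeJA arrays lay above both mock arrays, and the ein3 eil1 mock arrays lay above every Col-0 mock and coi1-2 array. In coi1-2, JRG21 rose with MeJA by 1.81 ± 0.29 (log2, SE, n = 2 arrays per group) or 3.51-fold (limma adjusted p = 0.00397), a call that was lost without coi1-2 MeJA replicate 1 (1.73, adjusted p = 0.0598). The response in ein3 eil1 was 0.72 ± 0.29 (95% interval 0.09 to 1.35) and did not pass (adjusted p = 0.229). Without either Col-0 mock array the same 0.72 had an adjusted p of 0.0101, since all 6 groups share an estimate of the spread. In Col-0, JRG21 rose by 3.08 ± 0.29, an 8.44-fold difference with a 95% interval of 2.45 to 3.70 in log2 (limma adjusted p = 2.54e-05), the 21st highest change of all 22589 features. Because its Col-0 mock arrays lay far apart, the response was 3.72 without Col-0 mock replicate 1 and 2.44 without replicate 2, and it was called in both cases.

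AT2G38240, the second oxygenase, followed the same course. Its levels were 9.67 and 9.25 in coi1-2 MeJA, against 8.21 and 8.03 in coi1-2 mock. They were 11.99 and 11.71 in ein3 eil1 MeJA, against 11.14 and 11.08 in ein3 eil1 mock. In Col-0 they were 12.15 and 12.20 with MeJA, against 9.54 and 8.79 with mock. MeJA and mock arrays did not overlap in any genotype, and again the untreated ein3 eil1 seedlings lay above the untreated Col-0 seedlings. In coi1-2 it rose by 1.34 ± 0.22 (SE, n = 2 per group) or 2.53-fold (adjusted p = 0.00412), which was lost without coi1-2 MeJA replicate 1 (1.13, adjusted p = 0.0782). In ein3 eil1 the response of 0.74 ± 0.22 (95% interval 0.27 to 1.21) did not pass (adjusted p = 0.0836). It passed without either Col-0 mock array (adjusted p = 0.0268) and with arrays centred on their medians (adjusted p = 0.0456). Centring also moved the median of all features in the ein3 eil1 response, from 0.0094 to 0.1016. In Col-0, AT2G38240 rose by 3.01 ± 0.22, an 8.07-fold difference (adjusted p = 3.39e-06) and the 22nd highest of all features.

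AT5G05600, the third oxygenase, rose in coi1-2 nearly as much as in Col-0. It gave 11.02 and 11.02 in coi1-2 MeJA, against 9.63 and 9.37 in coi1-2 mock. In ein3 eil1 it gave 12.003 and 11.868 with MeJA, against 11.37 and 11.23 with mock, and in Col-0 12.35 and 12.14 with MeJA, against 10.78 and 10.20 with mock. No MeJA array overlapped a mock array of its genotype. The rise was 1.52 ± 0.18 in coi1-2 (2.87-fold, adjusted p = 0.000426) and 1.76 ± 0.18 in Col-0 (3.38-fold, adjusted p = 4.26e-05), and leaving out any single array kept both calls. In ein3 eil1 the response was 0.63 ± 0.18 (95% interval 0.25 to 1.02), which did not pass (adjusted p = 0.071) but did so without either Col-0 mock array (adjusted p = 0.0267) and with arrays centred on their medians (adjusted p = 0.0428).

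OPCL1, the synthesis enzyme, was called in Col-0 and in neither mutant. It stood at 7.23 and 7.17 in coi1-2 MeJA, against 7.07 and 6.84 in coi1-2 mock. It stood at 7.84 and 8.16 in ein3 eil1 MeJA, against 8.028 and 8.0003 in ein3 eil1 mock, and at 8.13 and 8.04 in Col-0 MeJA, against 6.64 and 6.88 in Col-0 mock. The ein3 eil1 arrays overlapped between treatments, and their mock level was already close to that of Col-0 with MeJA. The MeJA responses of OPCL1, 0.25 ± 0.14 in coi1-2 (95% interval −0.07 to 0.56, adjusted p = 0.6) and −0.01 ± 0.14 in ein3 eil1 (adjusted p = 0.983), did not pass. In Col-0 it rose by 1.33 ± 0.14 (2.51-fold, adjusted p = 7.85e-05).

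JMT gave a weak signal throughout. Its levels were 3.58 and 3.72 in coi1-2 MeJA, against 3.54 and 3.61 in coi1-2 mock, then 4.58 and 4.15 in ein3 eil1 MeJA, against 3.90 and 3.88 in ein3 eil1 mock, and 3.58 and 3.70 in Col-0 MeJA, against 3.73 and 3.60 in Col-0 mock. All 12 arrays were below their array median and 8 were below the lower quartile (3.74 to 3.87), where the signal may be background, while the other 4 enzymes lay above the median on all 12 arrays. No detection calls were used. The coi1-2 response of JMT was 0.07 ± 0.15 (adjusted p = 0.937), and that of Col-0 was −0.02 ± 0.15, with a 95% interval of −0.34 to 0.30 (adjusted p = 0.967). In ein3 eil1 it was 0.47 ± 0.15 (95% interval 0.15 to 0.79, adjusted p = 0.107). That difference passed without ein3 eil1 MeJA replicate 2 (0.69, adjusted p = 0.0188).

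The 5 enzymes were chosen with earlier results of these data known, so counts over them, here and below, are descriptions. Nor are the 3 oxygenases separate cases, since their levels correlated at 0.961 to 0.991 over the 12 arrays. Counted over the 5 enzymes, MeJA raised 3 in coi1-2, where 1.55% of all features were called higher. In ein3 eil1 limma called 0 of 5, although 4 had an unadjusted p under 0.05 (16.1% of all features had one), and 1.68% of all features were called higher there. In Col-0 MeJA raised 4, where 4.56% of all features were called higher. Both MeJA arrays lay above both mock arrays for 4 of 5 enzymes in each genotype (in coi1-2 and Col-0 all but JMT, in ein3 eil1 all but OPCL1), where 20.6% of all features did so in coi1-2, 21.6% in ein3 eil1 and 20.0% in Col-0. The median response of the 5 was 1.34 in coi1-2, 0.63 in ein3 eil1 and 1.76 in Col-0, where the medians over all features were −0.0025, 0.0094 and −0.0326 in the same order.

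**Figure D2:**
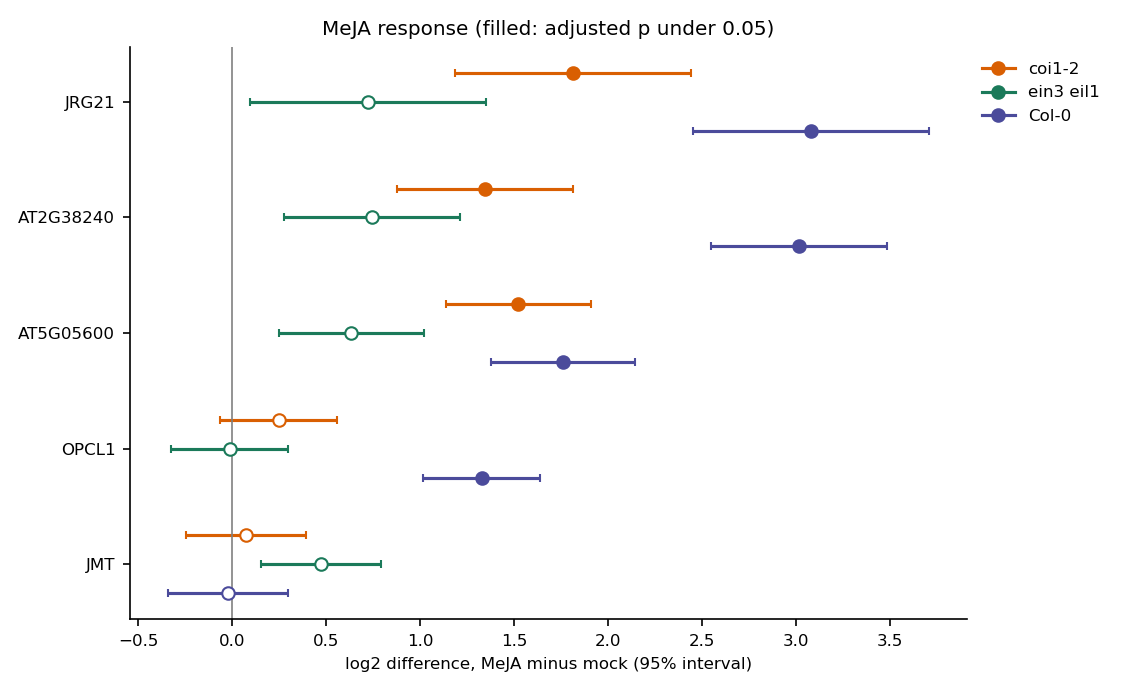
MeJA response of each enzyme (log2 difference, MeJA minus mock) in coi1-2, ein3 eil1 and Col-0, with 95% intervals from the limma fit, filled where the adjusted p was under 0.05. The Col-0 estimates of JRG21 (3.08) and AT2G38240 (3.01) lie above both mutants, whereas the AT5G05600 intervals of coi1-2 and Col-0 overlap.

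Testing the difference between responses directly, 2 of 5 enzymes responded less in coi1-2 than in Col-0, against 0.784% of all features. AT2G38240 differed by −1.67 ± 0.30 (log2, SE; adjusted p = 0.0199) and OPCL1 by −1.08 ± 0.20 (adjusted p = 0.0231). Each of these calls was lost in 6 of the 12 fits that left out an array, with adjusted p up to 0.121 for AT2G38240 and 0.124 for OPCL1. For AT2G38240 these were the fits without coi1-2 MeJA replicate 2, either coi1-2 mock array, either Col-0 MeJA array or Col-0 mock replicate 2. For OPCL1 they were those without either coi1-2 MeJA array, replicate 1 of coi1-2 mock, either Col-0 MeJA array or replicate 1 of Col-0 mock. For JRG21 the difference was −1.27 ± 0.41 and did not pass (adjusted p = 0.221). It was −1.91 and called without Col-0 mock replicate 1 (adjusted p = 0.00234), and −0.62 without replicate 2. AT5G05600 had a difference of −0.24 ± 0.25, with a 95% interval of −0.78 to 0.31 (adjusted p = 0.866). JMT had one of 0.10 ± 0.21 (adjusted p = 0.955).

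Between ein3 eil1 and Col-0 the responses differed for 4 of 5 enzymes, all smaller in ein3 eil1, where 1.39% of all features were called in that direction. JRG21 differed by −2.36 ± 0.41 (adjusted p = 0.0142), AT2G38240 by −2.27 ± 0.30 (adjusted p = 0.0032), OPCL1 by −1.34 ± 0.20 (adjusted p = 0.00698) and AT5G05600 by −1.13 ± 0.25 (adjusted p = 0.044). From the lowest, JRG21 ranked 20th and AT2G38240 ranked 23rd of all features. The calls of AT2G38240 and OPCL1 held in all 12 fits that left out an array. JRG21 lost its call without ein3 eil1 mock replicate 1 (−2.40), without replicate 2 of that group (−2.31) and without Col-0 MeJA replicate 1 (−2.26). These estimates lay close to the −2.36 of all 12 arrays. AT5G05600 kept its call in 1 of the 12, that without Col-0 mock replicate 1. Its estimate ranged from −1.42 to −0.835 over the 12. It stayed at −1.13 when a coi1-2 array, which does not enter this comparison, was left out. With arrays centred on their medians the adjusted p of AT5G05600 was 0.0777. JMT differed by 0.50 ± 0.21 (adjusted p = 0.308).

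The 2 mutants were also compared with each other, and 0 of 5 responses passed in limma, where 0.443% of all features were called in either direction. Of the 5, 2 had an unadjusted p under 0.05, as had 8.47% of all features. The estimates (ein3 eil1 minus coi1-2) were −1.09 ± 0.41 for JRG21 (adjusted p = 0.431), −0.89 ± 0.25 for AT5G05600 (adjusted p = 0.225), −0.60 ± 0.30 for AT2G38240 (adjusted p = 0.639), −0.26 ± 0.20 for OPCL1 (adjusted p = 0.783) and 0.40 ± 0.21 for JMT (adjusted p = 0.654). JRG21 passed without either Col-0 mock array (adjusted p = 0.0372) and in a fit of the mutant arrays alone (adjusted p = 0.0438). The root hair gene EXPA7 passed in this comparison at −1.26 ± 0.23 (adjusted p = 0.0376), a call lost in 8 of the 12 fits that left out an array (adjusted p up to 0.223). EXPA18 was at −1.08 ± 0.36 (adjusted p = 0.341, but 0.0319 without ein3 eil1 MeJA replicate 1), and the part of both in the enzyme differences was not tested.

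**Figure D3:**
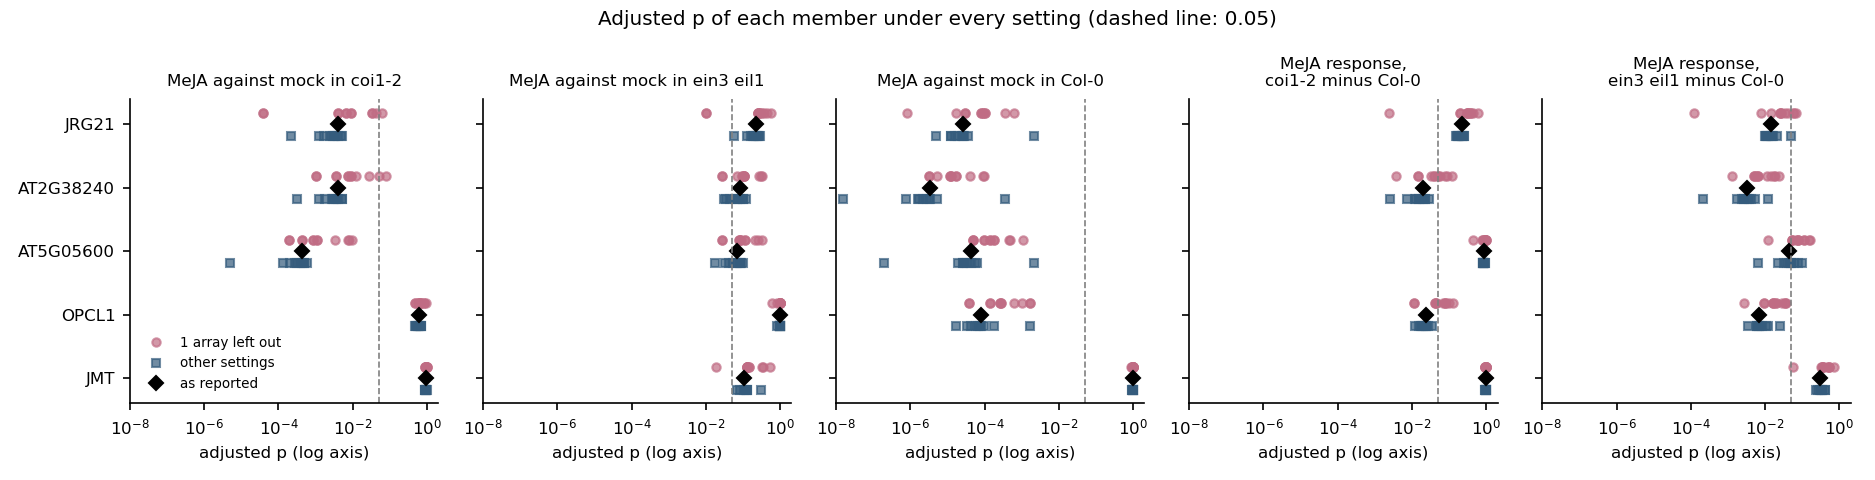
Adjusted p of each enzyme (log axis, dashed line at 0.05) for 5 comparisons, as reported (diamonds), with each of the 12 arrays left out (circles) and under the other settings tried (squares). The Col-0 responses of the 3 oxygenases and OPCL1 stay left of the line in every fit, while AT5G05600 in the last panel moves right of it in 11 of 12 circles.

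Levels were also compared between genotypes within each treatment. In coi1-2, 3 of 5 enzymes were below Col-0 under mock, against 6.07% of all features. JRG21 differed by −1.76 ± 0.29 (3.38-fold lower, adjusted p = 0.0014), AT2G38240 by −1.04 ± 0.22 (2.06-fold, adjusted p = 0.00646) and AT5G05600 by −0.99 ± 0.18 (1.98-fold, adjusted p = 0.00262). OPCL1 (0.20 ± 0.14, adjusted p = 0.45) and JMT (−0.09 ± 0.15, adjusted p = 0.78) did not pass. The JRG21 difference was −1.12 without Col-0 mock replicate 1 and −2.40 without replicate 2, and AT2G38240 missed the threshold without Col-0 mock replicate 1 (−0.67, adjusted p = 0.0594) or without coi1-2 mock replicate 2 (−0.95, adjusted p = 0.0579). In the same comparison EXPA7 differed by −0.86 ± 0.16 (adjusted p = 0.00345) and EXPA18 by −1.04 ± 0.25 (adjusted p = 0.0168, lost without replicate 1 of either group, adjusted p = 0.117 for Col-0 mock and 0.114 for coi1-2 mock), and the part of root hair cells in the enzyme differences was not tested.

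Untreated ein3 eil1 seedlings went the other way, with 4 of 5 enzymes above Col-0 under mock, against 6.13% of all features. JRG21 was higher by 2.12 ± 0.29 (4.33-fold, adjusted p = 0.000397), AT2G38240 by 1.94 ± 0.22 (3.84-fold, adjusted p = 7.7e-05), OPCL1 by 1.26 ± 0.14 (2.39-fold, adjusted p = 9.91e-05) and AT5G05600 by 0.81 ± 0.18 (1.76-fold, adjusted p = 0.0111). AT5G05600 missed the threshold without Col-0 mock replicate 2 (0.52, adjusted p = 0.0941), ein3 eil1 mock replicate 1 (0.75, adjusted p = 0.0905) or ein3 eil1 mock replicate 2 (0.88, adjusted p = 0.051). JRG21 ranged from 1.47 without Col-0 mock replicate 2 to 2.76 without replicate 1. JMT was at 0.23 ± 0.15 (adjusted p = 0.422). EXPA7 was at −0.13 ± 0.16 (adjusted p = 0.708) and EXPA18 at −0.34 ± 0.26 (adjusted p = 0.501), and their part in the enzyme differences was not tested.

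With MeJA, 4 of 5 enzymes were below Col-0 in coi1-2 (3.1% of all features were), and these calls held in every fit that left out an array. JRG21 differed by −3.02 ± 0.29 (8.14-fold lower, adjusted p = 3.55e-05), the 13th lowest difference of all features, and AT2G38240 by −2.72 ± 0.22 (6.57-fold, adjusted p = 8.49e-06), the 27th lowest. AT5G05600 differed by −1.23 ± 0.18 (2.34-fold, adjusted p = 0.000886) and OPCL1 by −0.88 ± 0.14 (1.84-fold, adjusted p = 0.00207), whereas JMT was at 0.01 ± 0.15 (adjusted p = 0.99). In this comparison EXPA7 was at −0.49 ± 0.16 (adjusted p = 0.0938) and EXPA18 at −0.23 ± 0.26 (adjusted p = 0.755). Their part in the enzyme differences was not tested. In ein3 eil1 the 3 oxygenases and OPCL1 did not differ detectably from Col-0. Their 95% intervals were −0.87 to 0.38 for JRG21, −0.80 to 0.14 for AT2G38240, −0.70 to 0.07 for AT5G05600 and −0.40 to 0.23 for OPCL1. JMT was the 1 enzyme of 5 called higher there, against 2.92% of all features, by 0.72 ± 0.15 (adjusted p = 0.0115). JMT lay below the lower quartile on both Col-0 MeJA arrays, at a signal that may be background, so the size of this difference is uncertain. It missed the threshold without Col-0 MeJA replicate 1 (0.66, adjusted p = 0.0961), without ein3 eil1 MeJA replicate 1 (0.51, adjusted p = 0.0799) and in a fit of these 4 arrays alone (adjusted p = 0.129). Between the same groups EXPA7 differed by −1.03 ± 0.16 (adjusted p = 0.00217) and EXPA18 was at −0.61 ± 0.26 (adjusted p = 0.238, but 0.00974 without ein3 eil1 MeJA replicate 1), and their part in the JMT difference was not tested.

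**Figure D4:**
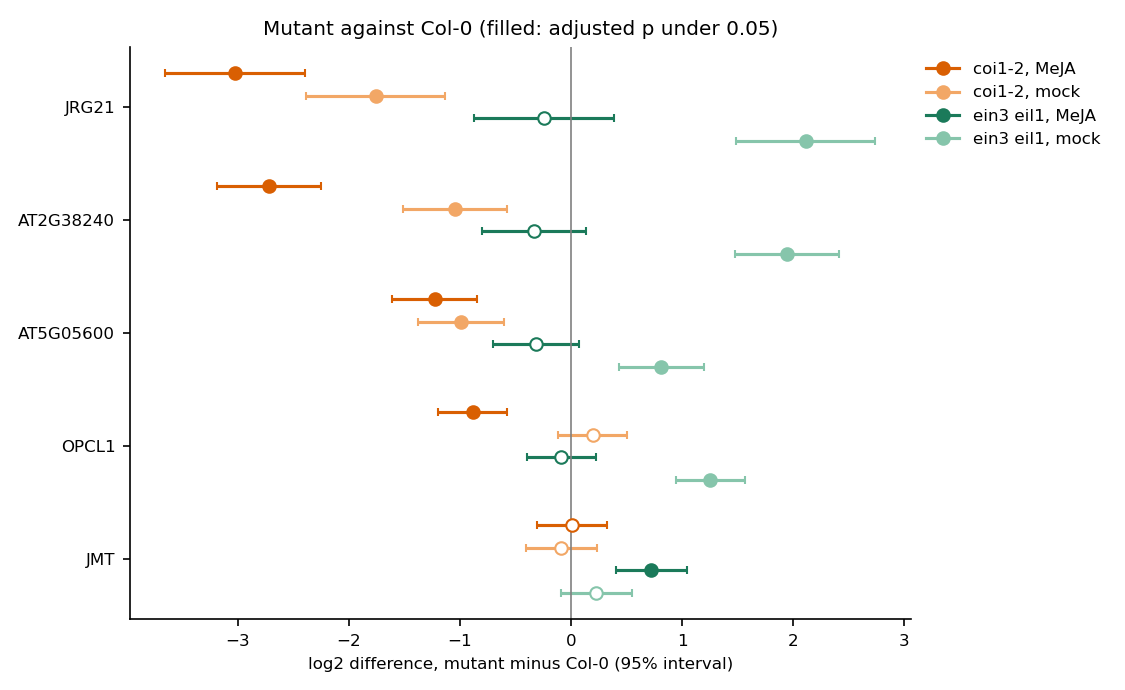
Difference of each mutant from Col-0 in log2 (mutant minus Col-0), under MeJA and under mock, with 95% intervals from the limma fit, filled where the adjusted p was under 0.05. For the 3 oxygenases coi1-2 lies left of 0 under both treatments, and ein3 eil1 lies right of 0 under mock (2.12 for JRG21) with intervals that span 0 under MeJA.

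Set against coi1-2, ein3 eil1 had higher levels of 4 of 5 enzymes under mock (7.11% of all features were higher) and of 5 of 5 under MeJA (8.32%). Under mock the difference was 3.87 ± 0.29 for JRG21 (14.7-fold, adjusted p = 1.23e-06), 2.99 ± 0.22 for AT2G38240 (7.92-fold), 1.80 ± 0.18 for AT5G05600 (3.49-fold) and 1.06 ± 0.14 for OPCL1 (2.08-fold). JMT was at 0.32 ± 0.15 (adjusted p = 0.214). Under MeJA the differences were 2.78 for JRG21, 2.39 for AT2G38240, 0.91 for AT5G05600, 0.80 for OPCL1 and 0.71 for JMT. The size of the JMT difference is uncertain, since JMT lay below the lower quartile on both coi1-2 MeJA arrays, where the signal may be background. The JMT call was lost without coi1-2 MeJA replicate 1 (0.64, adjusted p = 0.0554). EXPA7 was higher under mock by 0.73 ± 0.16 (adjusted p = 0.00898) and lower under MeJA by −0.54 ± 0.16 (adjusted p = 0.0354) in the same comparisons, with adjusted p up to 0.106 and 0.221 when an array was left out.

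Across all 6 groups the oxygenases had a common order of mean levels, from low to high coi1-2 mock, Col-0 mock, coi1-2 MeJA, ein3 eil1 mock, ein3 eil1 MeJA and Col-0 MeJA. For JRG21 and AT2G38240 the called neighbour differences were those between coi1-2 mock and Col-0 mock, and then between coi1-2 MeJA and ein3 eil1 mock. That upper step was 2.06 for JRG21 (adjusted p = 0.000418) and 1.64 for AT2G38240 (adjusted p = 0.000251). For AT5G05600 only the lowest step was called. MeJA-treated coi1-2 and untreated Col-0 seedlings did not differ detectably in JRG21 (0.05, adjusted p = 0.939) or AT2G38240 (0.30, adjusted p = 0.445). For AT5G05600 the coi1-2 MeJA level was higher by 0.53 (95% interval 0.15 to 0.92), which did not pass (adjusted p = 0.0702). OPCL1 fell into a low set (Col-0 mock 6.76, coi1-2 mock 6.96, coi1-2 MeJA 7.20) and a high set (ein3 eil1 MeJA 7.9998, ein3 eil1 mock 8.01, Col-0 MeJA 8.09), with the step between the sets as its only called neighbour difference (0.80, adjusted p = 0.00191). No neighbour difference of JMT was called, the largest being 0.47 between ein3 eil1 mock and ein3 eil1 MeJA (adjusted p = 0.107).

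The replicates of Col-0 mock, on which all responses and mock levels of Col-0 rest, were unusually far apart for the oxygenases. Replicate 1 exceeded replicate 2 by 1.28 for JRG21, by 0.74 for AT2G38240 and by 0.58 for AT5G05600. Only 8 of the 22589 features (0.0354%) had a larger gap between these arrays than JRG21, 234 (1.04%) had a larger one than AT2G38240, and 744 (3.29%) than AT5G05600. OPCL1 went the other way, by −0.23 (32.6% of features had a larger gap), and JMT differed by 0.13 (56.5%).

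**Figure D5:**
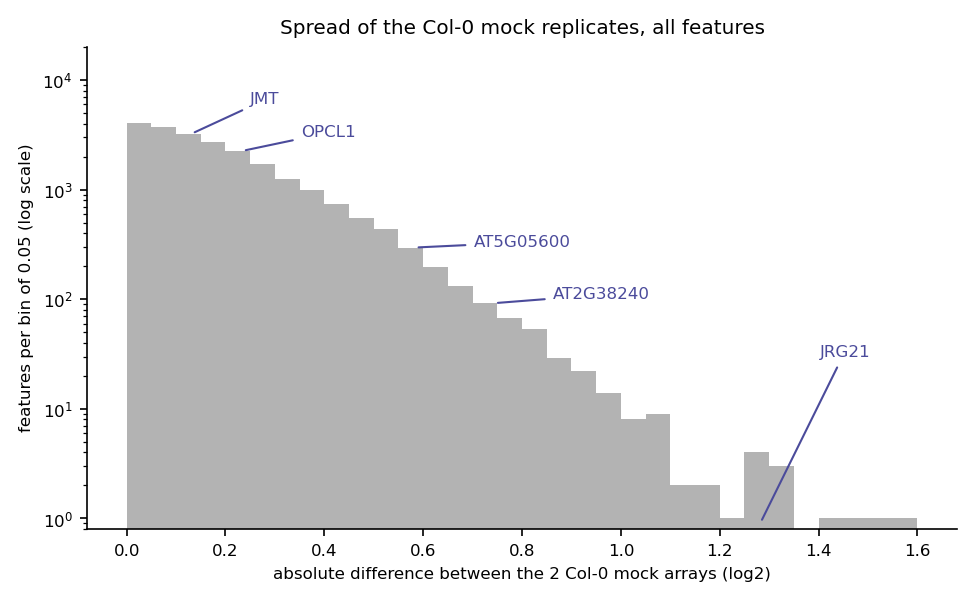
Absolute difference between the 2 Col-0 mock arrays for all 22589 features (log2, bins of 0.05, log count axis), with the 5 enzymes marked. JRG21, at 1.28, lies in the far tail, AT2G38240 (0.74) and AT5G05600 (0.58) lie on the upper slope, and OPCL1 and JMT lie in the bulk.

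Over the 12 arrays the level of JRG21 correlated with that of AT2G38240 at a Pearson r of 0.991 and with that of AT5G05600 at 0.962, and AT2G38240 correlated with AT5G05600 at 0.961. OPCL1 correlated with the oxygenases at 0.819 to 0.904, and JMT with the other enzymes at 0.469 to 0.557. These are descriptions over arrays that share 6 groups. Among 1398 other named genes whose group means span at least 1 log2 unit, 61 had an r of at least 0.9 with JRG21, 59 with AT2G38240, 24 with AT5G05600, 17 with OPCL1 and 4 with JMT. The closest to JRG21 were AT2G43530 (0.973), AT1G11440 (0.973), AT3G27420 (0.972) and AT2G43550 (0.969). AT5G12340 (0.977) and AT1G44790 (0.972) led for AT2G38240, followed by AT2G43530 (0.970) and AT2G43550 (0.967), so AT2G43530 and AT2G43550 stood in both lists. For AT5G05600 the closest were AT3G18280 (0.956), AT3G10260 (0.948), AT3G23550 (0.941) and AT1G63010 (0.941), and for OPCL1 AT1G14120 (0.957), AT3G16330 (0.950), AT1G10585 (0.943) and AT3G52870 (0.941). The genes nearest to JMT were JAL23 (0.936), AT5G22555 (0.930), AT3G28270 (0.918) and AT5G05960 (0.905). The group means of JMT itself span less than 1 log2 unit (3.58 to 4.37). Its signal lay below the array median on all 12 arrays and may be background, which limits these correlations. JAL23 had its highest group mean, 6.48, in ein3 eil1 MeJA, where JMT was also highest, and lay between 3.36 and 3.92 in the other groups.

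Of 67 jasmonate genes listed, 14 were measured by name, and 9 of these were not among the 5 enzymes. The rest of the list was not matched by name to a probe set here, so the response of those genes was not examined. Among the 9, limma called 0 in the MeJA response of coi1-2, where 578 of all 22589 features were called. It called 0 in that of Col-0, where 1722 were. In both responses 0 of the 9 had an unadjusted p under 0.05, where 11.6% of all features had one in coi1-2 and 18.7% in Col-0. At these shares 9 genes are too few to set them apart from all features. The other measured genes of synthesis were the CoA ligase-like genes AT4G05160 and AT5G63380 and the peroxisomal beta-oxidation gene AIM1. Those of breakdown were AT3G11180, the remaining oxygenase of the JOX family, and the glucosyltransferase gene UGT76E1. In Col-0, AT5G63380 was at 0.28 (adjusted p = 0.4), AIM1 at 0.27 (adjusted p = 0.381) and AT3G11180 at 0.18 (adjusted p = 0.502). AT3G11180 lay between 3.27 and 3.77, below the lower quartile on all 12 arrays. None of these 5 genes was called in any of the 4 comparisons of a mutant with Col-0, where 1237 to 3047 of all 22589 features were.

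Of the 4 other genes, the regulators MYC3 and MYC4 and the response genes THI2.1 and PDF1.2, 2 were called higher in ein3 eil1 than in Col-0 under mock, where 6.13% of all features were, and 2 under MeJA, where 2.92% were. The defensin gene PDF1.2, whose close copies may not be told apart by the probes, was higher in ein3 eil1 than in Col-0 by 4.40 ± 0.41 under mock (adjusted p = 1.9e-05) and by 4.34 ± 0.41 under MeJA (adjusted p = 5.53e-05). PDF1.2 lay above the array median on the 4 ein3 eil1 arrays, and of the other 8 it lay below the lower quartile on 4 and between the lower quartile and the median on 4. Where the Col-0 signal may be background, the size of these differences is uncertain. PDF1.2 also differed between replicates in ein3 eil1, by 1.65 under MeJA (0.062% of all features had a larger gap) and by 0.84 under mock (0.235%). Its Col-0 response was 0.82 ± 0.41 (adjusted p = 0.322). Under MeJA the other gene of the 9 called higher in ein3 eil1 than in Col-0 was THI2.1 (0.79 ± 0.21, adjusted p = 0.0484), a call lost with any of 11 arrays left out and with arrays centred on their medians (adjusted p = 0.0518). MYC3, a transcription factor freed when JAZ proteins are degraded, was higher than Col-0 under mock by 0.47 ± 0.12 in coi1-2 (adjusted p = 0.0226) and by 0.48 ± 0.12 in ein3 eil1 (adjusted p = 0.027). Leaving out any 1 of the 4 arrays of either comparison ended its call (adjusted p up to 0.141), and so did centring arrays on their medians in ein3 eil1 (0.36, adjusted p = 0.0971). THI2.1, which encodes a thionin, rose with MeJA in ein3 eil1 by 0.93 ± 0.21 (adjusted p = 0.0266), but lay below the lower quartile on 9 arrays, and its call was lost without either ein3 eil1 mock array or without ein3 eil1 MeJA replicate 1 (adjusted p up to 0.225). In the same response EXPA7 fell by 0.88 (adjusted p = 0.00835), lost without replicate 1 of either ein3 eil1 group (adjusted p = 0.113 for mock and 0.0602 for MeJA), and EXPA18 was at −0.87 (adjusted p = 0.0855, but 0.00452 without ein3 eil1 MeJA replicate 1). Their part in these results was not tested.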

How the data were processed

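The deposited values are log2 expression levels, for 22810 probe sets on 12 ATH1 arrays. Per the submitters' processing notes, the authors used Affymetrix Expression Console, RMA and Partek, with neither version nor order stated. RMA gives each array nearly the same distribution, so that a shift common to most transcripts is hidden. The labelling manual named in the labels is for whole-transcript sense targets, and its bearing on the values was not tested. Coordinates were not used, since no genome build was given in the sources used here.

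The 64 control probe sets were left out. Of the other 22746, 13513 had 1 gene name, 503 several and 8730 none here. Of the 13513, 13436 matched the gene table, and averaging the probe sets of 146 genes gave 13356 named genes and 9233 unnamed features, 22589 in all. The limma package (3.58.1, R 4.3.3; lmFit and eBayes) fitted a mean per group to all 12 arrays, leaving 6 residual and 6.24 prior degrees of freedom. Adjusted p-values are Benjamini-Hochberg values over the 22589 features of each contrast, called under 0.05. The fit was tested on simulated data. Python 3.11.15 with pandas 2.3.3 and matplotlib 3.10.9 made the tables and figures.

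The 5 enzymes and the gene lists were chosen with earlier results of these data known. Besides the 5, the text names EIN3, the measured markers, genes of the jasmonate lists (per list and comparison up to 4 with the smallest adjusted p and up to 2 that did not pass), and per enzyme the 4 named genes with the highest correlation. Alternatives were quantile normalization, centring arrays on their medians, filters that kept features above the 25th or the 50th percentile, trended and robust eBayes, the arrays of a contrast only, a replicate block, array weights, each array left out, named genes only, and the probe set with the highest mean. The number of arrays limits the precision of every value. Planned comparisons of promoters and related proteins were not run, for want of sequence tables here.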

Additional observations from a re-analysis of the deposited data

Results flagged for a closer look

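The MeJA response of 4 enzymes differed between genotypes by a test of the difference itself (limma interaction, 2 arrays per group). Between coi1-2 and Col-0 the difference was −1.67 for AT2G38240 (adjusted p = 0.0199) and −1.08 for OPCL1 (adjusted p = 0.0231). Between ein3 eil1 and Col-0 it was −2.36 for JRG21 (adjusted p = 0.0142), −2.27 for AT2G38240 (adjusted p = 0.0032), −1.34 for OPCL1 (adjusted p = 0.00698) and −1.13 for AT5G05600 (adjusted p = 0.044). Of these calls, only those of AT2G38240 and OPCL1 between ein3 eil1 and Col-0 held whichever array was left out. That of AT5G05600 was also lost with arrays centred on their medians (limma adjusted p = 0.0777). There the median difference of all features was 0.15, against 0.0284 as deposited. Groups of 2 arrays are too small for a test of single outlying arrays.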

How the results depend on the processing

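Of the values of the 5 enzymes under the alternatives, 1228 kept their direction and side of the threshold, 40 lost a call, 17 gained one and 11 changed sign. In ein3 eil1 the enzymes called as responding to MeJA numbered 0, and 2 (AT2G38240 and AT5G05600) with arrays centred on their medians, with eBayes trend and robust (adjusted p = 0.0314 and 0.0175) or with a replicate block (0.0359 and 0.0327). The response of ein3 eil1 minus coi1-2 was called for 0 enzymes, and for 1 (JRG21) with the arrays of the contrast only. Under MeJA, ein3 eil1 against Col-0 had 1 call, JMT, and 0 under the 25th and 50th percentile filters, which remove JMT, or with the arrays of the contrast only. The smaller AT5G05600 response of ein3 eil1 was lost with centring (−1.004, adjusted p = 0.0777), with the arrays of the contrast only (0.0992) and with named genes only (0.0589).

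With 1 array left out, the number called ranged from 1 to 3 for the coi1-2 response, 0 to 3 for the ein3 eil1 response, 0 to 2 for coi1-2 minus Col-0, 2 to 4 for ein3 eil1 minus Col-0 and 0 to 1 for ein3 eil1 minus coi1-2. It ranged from 2 to 3 for coi1-2 against Col-0 under mock, 3 to 4 and 0 to 1 for ein3 eil1 against Col-0 under mock and under MeJA, and 4 to 5 for ein3 eil1 against coi1-2 under MeJA. It stayed at 4 in the other 3 comparisons. Signs changed only in values that were not called. These were AT5G05600 in coi1-2 minus Col-0 (−0.529 to 0.0535 with 1 array left out) and OPCL1 in the ein3 eil1 response (0.0064 with quantile normalization, 0.078 with centring and −0.175 to 0.146 with 1 array left out). OPCL1 in ein3 eil1 against Col-0 under MeJA ranged from −0.246 to 0.0752 with 1 array left out. JMT in the Col-0 response was 0.029 with quantile normalization and ranged from −0.0888 to 0.0412 with 1 array left out. JMT in coi1-2 against Col-0 under MeJA was −0.0091 with centring and ranged from −0.0628 to 0.0823 with 1 array left out. The cause of these changes was not tested.

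Centring moved the median of all features by 0.122 in ein3 eil1 minus Col-0, by 0.115 in ein3 eil1 minus coi1-2 and by −0.122 in ein3 eil1 against Col-0 under mock. In the ein3 eil1 response it moved by 0.092. Each of these medians lay further from 0 with centring than as deposited, as in the ein3 eil1 response (0.1016 against 0.0094). Over all 22589 features the Col-0 response had 1722 calls, and 719 with only the 13356 named genes, which is also a smaller share. The reason for the smaller share was not tested. With named genes only the other comparisons had 238 (coi1-2 response, 578 over all features), 399 (ein3 eil1 response, 969), 112 (coi1-2 minus Col-0, 264), 127 (ein3 eil1 minus Col-0, 409), 47 (ein3 eil1 minus coi1-2, 100), 1461 and 748 (coi1-2 against Col-0 under mock, 3047, and MeJA, 1646), 976 and 505 (ein3 eil1 against Col-0, 2108 and 1237) and 1386 and 1867 (ein3 eil1 against coi1-2, 2922 and 4073). With the arrays of the contrast only the ein3 eil1 response had 386, ein3 eil1 minus Col-0 213 and ein3 eil1 against Col-0 under MeJA 443, and above the 50th percentile ein3 eil1 minus coi1-2 had 46. The labels give the groups shared replicate numbers, but same-numbered deviations correlated between −0.218 and 0.233 (above 0 in 6 of 15 pairs of groups), so the numbers were not taken to pair samples. With the replicate block 1698 features were called in Col-0 and 915 in ein3 eil1, and the enzyme counts of the other 11 comparisons did not move. The 2 arrays per group and a JMT signal below the array median limit these values.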
